A study of Homo sapiens with 6 samples.

Results

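The metallothioneins and the zinc response were examined as a group of 10 genes, matched by gene symbol in the deposited expression table. They were 8 metallothionein genes (MT1A, MT1E, MT1F, MT1G, MT1H, MT1M, MT1X and MT2A), the zinc sensor MTF1 and the zinc exporter SLC30A1. All 10 were found among the 58735 genes of the table. The libraries came from the lung adenocarcinoma line A549, grown in F12K medium with serum and transfected either with the empty plasmid pcDNA3.1 or with a ZBTB16 plasmid. Each group had 3 libraries of total RNA. The labels give the empty-vector cells as wild type and the others as overexpressing ZBTB16. The promoter of the ZBTB16 plasmid, the share of cells transfected and the time after transfection are not stated in the sources used here. Because ZBTB16 is itself a zinc finger protein, the comparison asks whether genes driven by MTF1 differed when the ZBTB16 transcript was at a high level. These data measure RNA, and the level of ZBTB16 protein is not known from them.

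Metallothioneins are short, cysteine-rich proteins that bind zinc and copper in the cytosol and also take up toxic metals such as cadmium. MTF1 is a zinc finger transcription factor that senses free zinc. When zinc rises it binds metal response elements, short DNA motifs that occur in several copies in metallothionein promoters, and switches on metallothioneins and SLC30A1, which carries zinc out of the cytosol. Metallothionein genes are also known to respond to glucocorticoids and to oxidative stress, and MT2A is commonly the most abundant of them in epithelial cells.

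Values were FPKM, that is read numbers divided by gene length and library depth, from 15478010 to 17319971 reads per library recovered from the table. ZBTB16 had 0 reads in each empty-vector library and stood at 426, 488 and 456 FPKM in the ZBTB16 libraries, so the transcript followed the labels. Of 5 epithelial markers, summed at 1785 to 1929 FPKM with empty vector and at 1737 to 1821 with ZBTB16, the keratins KRT7, KRT8 and KRT18 were at 494 FPKM or more in every library, CDH1 at 6.34 to 7.27 and EPCAM at 1.05 to 1.47. The 5 aldo-keto reductase and aldehyde dehydrogenase genes known to be high in A549 summed to 3299 to 3383 FPKM with empty vector and to 3118 to 3369 with ZBTB16. Limma and voom called 0 of them, and 1 had an unadjusted p under 0.05 in limma, as did 10.2% of all genes tested. In 2, ALDH1A1 and AKR1C2, the ZBTB16 libraries all lay below, as in 8.1% of all genes tested. ALDH1A1 stood at 1357 ± 10.4 and 1235 ± 31.4 FPKM (SD, n = 3 each, adjusted p = 0.260 in limma). The labels' extraction text names retinas. The retina genes CRX and RPE65 had 0 reads in every library, and 7 retina markers summed to 0.661 to 1.14 FPKM with empty vector and to 0.635 to 0.864 with ZBTB16. Summed markers of immune cells came to 3.21 to 3.73 and 3.26 to 3.47 FPKM, of which CD14 was the main part, those of fibroblasts to 2.14 to 2.48 and 2.14 to 2.46, and those of endothelial cells to at most 0.242 and 0.263.

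The metal response element could be looked for in 5 of the 10 genes, whose promoter windows were in the RefSeq table used (GRCh38.p14, 250 bases before to 50 after the transcription start). The windows of the most abundant member, of a second expressed metallothionein, of a metallothionein without a read and of the exporter are shown because they set motif content beside expression. Capitals mark every match to TGCACNC or TGCGCNC, the core of the element, on either strand. The RefSeq start of MT2A lies inside the GENCODE interval of the gene given further on, so starts differ between the annotations. The SLC30A1 window lies wholly upstream of the GENCODE interval of that gene, whose upstream end is at 211578742. The letters of that window therefore do not describe the start of SLC30A1 as its reads were counted. The windows lie at chr16:56608334-56608633 (MT2A), chr16:56682220-56682519 (MT1X) and chr16:56669564-56669863 (MT1H) on the plus strand, and at chr1:211579112-211579411 (SLC30A1) on the minus strand.
MT2A: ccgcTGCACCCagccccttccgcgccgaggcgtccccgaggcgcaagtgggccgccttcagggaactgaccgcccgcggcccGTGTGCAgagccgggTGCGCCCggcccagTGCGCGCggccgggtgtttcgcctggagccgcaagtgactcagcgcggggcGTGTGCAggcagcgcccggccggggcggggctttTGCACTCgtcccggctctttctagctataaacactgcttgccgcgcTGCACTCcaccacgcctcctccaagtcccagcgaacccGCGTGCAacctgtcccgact
MT1X: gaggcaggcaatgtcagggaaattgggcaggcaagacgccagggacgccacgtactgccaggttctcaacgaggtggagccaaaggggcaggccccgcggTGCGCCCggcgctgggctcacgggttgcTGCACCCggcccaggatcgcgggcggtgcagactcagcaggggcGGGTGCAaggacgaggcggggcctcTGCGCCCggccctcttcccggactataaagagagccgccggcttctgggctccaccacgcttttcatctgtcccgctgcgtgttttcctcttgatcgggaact
MT1H: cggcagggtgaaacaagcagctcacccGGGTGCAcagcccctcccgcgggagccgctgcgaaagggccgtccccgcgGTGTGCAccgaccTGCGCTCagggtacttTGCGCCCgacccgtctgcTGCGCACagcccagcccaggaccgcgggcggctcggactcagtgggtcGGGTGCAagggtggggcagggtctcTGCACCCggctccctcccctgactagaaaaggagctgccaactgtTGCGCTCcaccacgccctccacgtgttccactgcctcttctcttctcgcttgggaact
SLC30A1: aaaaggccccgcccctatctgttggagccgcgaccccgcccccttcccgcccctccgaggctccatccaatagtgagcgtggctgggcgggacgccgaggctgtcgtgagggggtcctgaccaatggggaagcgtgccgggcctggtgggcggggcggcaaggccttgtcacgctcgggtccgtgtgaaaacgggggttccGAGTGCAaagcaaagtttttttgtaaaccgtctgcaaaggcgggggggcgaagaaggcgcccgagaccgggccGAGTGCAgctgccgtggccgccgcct

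The MT2A window held 8 matches, 6 of them TGCACNC and 2 TGCGCNC. The MT1H window also held 8, with 4 of each form. MT1X had 4 matches and SLC30A1 had 2, while the window of MTF1 (chr1:37859543-37859842, minus strand) had 0. No matches overlapped each other in any of these windows. Of all 35116 promoter windows in the RefSeq table, 29.6% held at least 1 match, 8.60% at least 2, 0.601% at least 4 and 0.0199% at least 8. A TATAAA box, found in 7.33% of all windows on the strand of the gene, started at -29 from the transcription start in MT2A and at -30 in MT1X. It was not found in the other 3 windows. A match describes these letters only and was not tested as a site of binding.

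Genes with as many matches differed widely in expression. MT2A had 38180 reads over the 6 libraries, and MT1H, with as many matches, had 0. MT1E, MT1G and MT1M also had 0 reads in every library. A count of 0 over the 6 libraries allows up to 3 reads, which is 0.0285 FPKM for MT1E, 0.0400 for MT1G, 0.0415 for MT1H and 0.0319 for MT1M, for counting error only. That floor holds for the mean of all 6 libraries, and no fold change can be given for these 4 genes. The 8 metallothioneins share much of their coding sequence, with 88.5% to 94.5% identical bases over the 28 pairs. Whether the authors' counting kept reads that align to several genes is not stated in the sources used here. In the GENCODE 29 transcripts, 50-base words that also occur in another gene made up 16.5% of the words of MT1G, 15.8% of those of MT1H, 9.87% of those of MT1M and 7.10% of those of MT1E. For MT2A the share was 3.02%, for MT1A 5.76%, for MT1F 1.22% and for MT1X 18.3%. With 100-base words the share was 0% in all 8 but MT1H at 1.39% and MT1X at 11.3%.

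**Figure D1:**
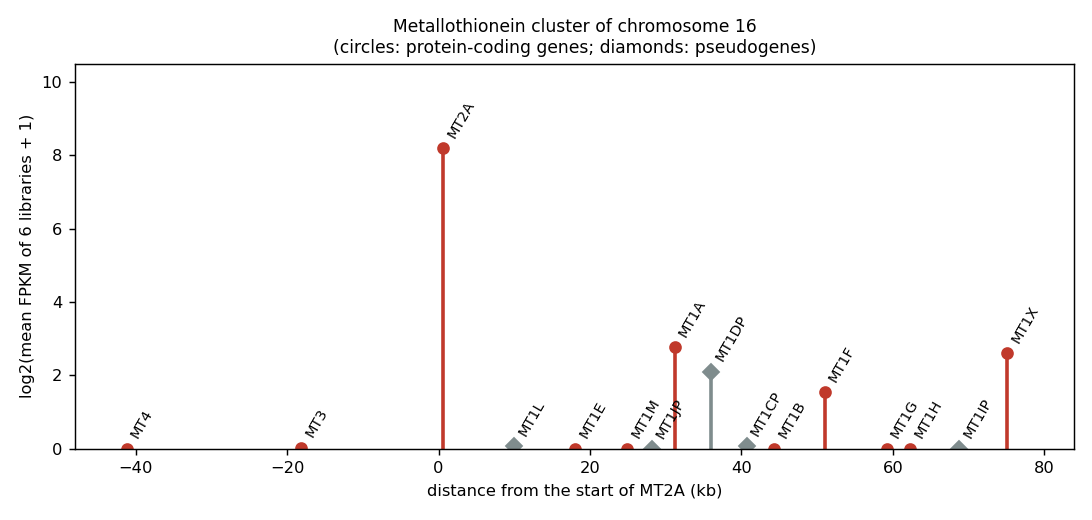
Mean level of each metallothionein gene and pseudogene of the chromosome 16 cluster, as log2(mean FPKM of the 6 libraries + 1), against its distance in kilobases from the start of MT2A. MT2A stands at 294 FPKM, MT1A, MT1X and MT1F at 5.86, 5.11 and 1.91, and MT1E, MT1M, MT1G and MT1H at 0.

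The 8 metallothionein genes lie together on the long arm of chromosome 16 (hg38), from MT2A at 56608199 to 56609497 to MT1X at 56682424 to 56684196. All are on the plus strand except MT1G at 56666731 to 56668065 on the minus strand. Genes with and without reads lay among each other in the cluster, as the map of levels by distance shows. MT1E and MT1M, both at 0, lay between MT2A and MT1A. MT1G and MT1H, also at 0, lay between MT1F and MT1X. Per deposited gene length, MT2A was 50.3 times MT1A, 57.6 times MT1X and 154 times MT1F. It made up 95.6% to 96.8% of metallothionein reads in each library and ranked 94 of 12499 genes by mean FPKM. The deposited lengths are the merged exons of all annotated transcripts, which for MT1X is 1773 bases against 450 in its principal transcript, MT1X-201. Per length of the principal transcript the means came to 487 for MT2A, 20.1 for MT1X, 5.86 for MT1A and 5.22 for MT1F, so the order of MT1X and MT1A depends on the length used.

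No member of the group passed the test between ZBTB16 and empty vector. The 6 genes with a mean of at least 1 FPKM were tested with limma on log2(FPKM + 1) within a fit of 12499 genes, with a call where the p adjusted by Benjamini-Hochberg was under 0.05. Of the 6, 0 were called higher and 0 lower, where 0.072% of all tested genes were called, 0.064% as higher and 0.008% as lower. At an unadjusted p under 0.05 there was 1, MT2A, on the higher side, where 10.2% of all tested genes had such a p and 5.08% had it on that side. The groups overlapped in all 6. Among all tested genes they did not overlap in 16.2%, with ZBTB16 above in 8.12% and below in 8.1%. Fold changes were positive in 3 and negative in 3, with a median log2 of 0.01, beside a median of 0.00 over all genes tested (-0.0031 before rounding). With limma voom on the recovered reads, which called 1.58% of genes (0.896% higher, 0.688% lower), the count among the 6 was also 0. It was again 0 in limma among protein-coding genes alone, where 0.823% were called (0.518% higher, 0.305% lower). In bulk RNA fewer cells of a type and less RNA per cell cannot be told apart, and neither can a large change in a few cells and a small change in all.

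MTF1 (chromosome 1, 37809567 to 37859620, minus strand), the sensor, was expressed at a low level. It stood at 2.03, 2.85 and 2.75 FPKM with empty vector and at 2.96, 2.49 and 2.76 with ZBTB16, from 272 to 384 reads per library. The lowest value was an empty-vector library and the highest a ZBTB16 library, with the other 4 between 2.49 and 2.85. The means were 2.54 ± 0.451 and 2.74 ± 0.235 FPKM (SD, n = 3 each). The log2 fold change was 0.08 (SE 0.10, 95% interval -0.15 to 0.32), with a limma adjusted p of 0.867 and an exact two-sided permutation p of 0.6. With 3 libraries against 3 that permutation test cannot go below 0.1.

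MT2A, the dominant metallothionein, was the member nearest to the threshold. Its values were 306, 255 and 266 FPKM with empty vector and 336, 291 and 314 with ZBTB16, from 5518 to 7079 reads per library. The first empty-vector library lay above the second ZBTB16 library, so the groups overlapped, although the ZBTB16 mean was 13.9% higher. The means were 275 ± 27.0 and 314 ± 22.6 FPKM (SD, n = 3 each). The spread between libraries, 9.79% of the mean with empty vector and 7.19% with ZBTB16, was wider than the 1.25% that counting alone gives at this depth. The log2 fold change was 0.19 (SE 0.079, 95% interval 0.01 to 0.37, or 1.01-fold to 1.29-fold), with an unadjusted p of 0.0422 in limma and an adjusted p of 0.457. The exact permutation p was 0.2. Without empty-vector replicate 1, the library in which the groups met, the log2 fold change was 0.27 with a limma adjusted p of 0.232, and over all 6 fits with a library left out the adjusted p ran from 0.232 to 0.746.

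MT1A (chromosome 16, 56638666 to 56640087) rested on 31 to 51 reads per library. It stood at 4.68, 5.60 and 5.91 FPKM with empty vector and at 6.05, 5.47 and 7.43 with ZBTB16. The second ZBTB16 library lay below empty-vector replicates 2 and 3. The means were 5.40 ± 0.641 and 6.31 ± 1.01 FPKM (SD, n = 3 each), and limma gave a log2 difference of 0.19 (SE 0.11, 95% interval -0.07 to 0.45, adjusted p = 0.652). The spreads of 11.9% and 15.9% of the mean were no wider than the 16.1% that counting alone gives.

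MT1X, whose exons share 18.1% of their bases with the transcript AC026461.1 on the same strand, stood at 5.36, 5.20 and 5.05 FPKM with empty vector and at 4.13, 5.71 and 5.20 with ZBTB16. Its lowest and its highest value were both in ZBTB16 libraries. The means were 5.20 ± 0.157 and 5.01 ± 0.808 FPKM, and the log2 fold change was -0.05 (SE 0.094, 95% interval -0.27 to 0.16, limma adjusted p = 0.910).

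MT1F (chromosome 16, 56657694 to 56660698), with 47 to 71 reads per library, was at 1.93, 1.90 and 2.03 FPKM with empty vector and at 2.43, 1.70 and 1.43 with ZBTB16. As with MT1X, the ZBTB16 libraries spanned the whole empty-vector range. The spread was 3.54% of the mean with empty vector and 27.8% with ZBTB16, where counting alone gives 12.9%. The log2 fold change was -0.06 (SE 0.12, 95% interval -0.34 to 0.21, limma adjusted p = 0.917).

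SLC30A1 (chromosome 1, 211571568 to 211578742, minus strand), the plasma membrane exporter that MTF1 induces, had 1305 to 1739 reads per library. It stood at 16.4, 19.0 and 17.1 FPKM with empty vector and at 15.4, 17.8 and 17.2 with ZBTB16. The highest value was an empty-vector library and the lowest a ZBTB16 library, with the other 4 between 16.4 and 17.8. The means were 17.5 ± 1.36 and 16.8 ± 1.25 FPKM (SD, n = 3 each). The log2 fold change was -0.05 (SE 0.071, 95% interval -0.22 to 0.11, or 0.861-fold to 1.08-fold), with a limma adjusted p of 0.877 and an exact permutation p of 0.6. The upper end of its interval, 1.08-fold, was the lowest of the 6 tested members, and that of MT1A, 1.36-fold, was the highest.

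**Figure D2:**
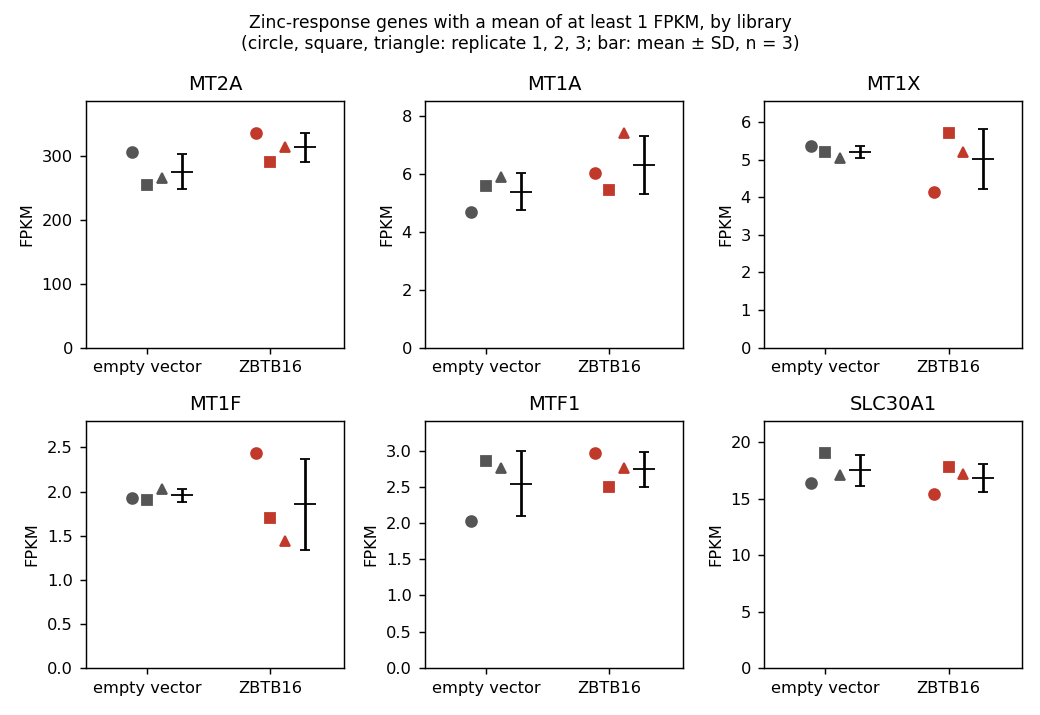
FPKM of the 6 tested members in each library, with empty vector in grey and ZBTB16 in red, replicates 1, 2 and 3 as circles, squares and triangles, and the mean ± SD (n = 3) as bars. The 2 groups overlap in every panel, and in the MT2A panel the first empty-vector library at 306 FPKM lies above the second ZBTB16 library at 291.

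The rest of the metallothionein family was at low levels. Of 13 further genes and pseudogenes, 5 had 0 reads in all libraries and 2 passed the filter. Limma and voom both called 0 of them, and 0 had an unadjusted p under 0.05 in limma. The protein-coding MT1B and MT4 were among those at 0. MT3, known from the brain, had at most 0.0652 FPKM. The pseudogene MT2P1 stood at 5.88, 4.26 and 7.87 FPKM with empty vector and at 7.43, 7.03 and 5.04 with ZBTB16, and 15.7% of its 50-base words occur in other genes, MT2A among them, so its value is uncertain. MT1DP stood at 3.75, 3.76 and 2.83 FPKM and at 3.05, 1.84 and 4.53. Both are short, at 183 bases for MT2P1 and 191 for MT1DP, and rested on few reads. MT2P1 had 13 to 24 reads per library and MT1DP had 6 to 15. Their limma adjusted p were 0.922 and 0.910.

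Zinc transporters outside the group were compared next. SLC30 proteins export zinc from the cytosol or load it into vesicles, and SLC39 proteins bring it into the cytosol. Of the 23 other transporters of these families 14 were tested, 4 of SLC30 and 10 of SLC39. Limma called 0 of the 14 over all genes, with 1 at an unadjusted p under 0.05, and voom called 1, both times SLC39A8. Over all tested genes 10.2% had such a p in limma, and voom called 1.58%. The median log2 was -0.02, with 4 positive and 10 negative. The most abundant tested member of SLC30 beside SLC30A1 was SLC30A5 at 10.6 ± 0.451 and 10.4 ± 0.379 FPKM (log2 difference -0.02, SE 0.053, adjusted p = 0.935 in limma). The most abundant of SLC39 was SLC39A7, which releases zinc from the endoplasmic reticulum, at 43.7 ± 1.97 and 42.6 ± 0.779 FPKM (log2 -0.04, limma adjusted p = 0.871). SLC39A10, an importer described as repressed through MTF1 when zinc is high, was at 12.8 ± 1.16 and 11.6 ± 0.128 FPKM (limma adjusted p = 0.575).

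SLC39A8 (ZIP8; chromosome 4, 102251041 to 102431258, minus strand), a plasma membrane importer of zinc and manganese, stood apart from the other 13 by its p. It was at 10.8, 10.8 and 10.7 FPKM with empty vector and at 12.8, 15.5 and 14.8 with ZBTB16. All 3 ZBTB16 libraries lay above all 3 empty-vector libraries, as in 8.12% of all tested genes, and the empty-vector values differed by little. Those values rested on 1170, 1166 and 1151 reads. For SLC30A1, at 1305 to 1739 reads per library, counting alone gives a spread of 2.53% of the mean. The empty-vector values of SLC39A8 lay closer together than that, so their closeness is no measure of a small spread between cultures. The means were 10.7 ± 0.0707 and 14.4 ± 1.38 FPKM (SD, n = 3 each), so that the log2 difference was 0.38 (SE 0.068, 95% interval 0.23 to 0.54). Its unadjusted p was 0.000356 in limma and its adjusted p over all 12499 genes was 0.0982, so it did not pass. It passed as higher in limma voom on the recovered reads, at an adjusted p of 0.00052, as did 0.896% of genes. It also passed in limma among protein-coding genes alone (adjusted p = 0.0195, as did 0.518% of those genes as higher) and among genes with a mean of at least 5 FPKM (adjusted p = 0.0243). With a library left out it passed in 0 of 6 fits, at limma adjusted p from 0.0785 to 0.277.

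**Figure D3:**
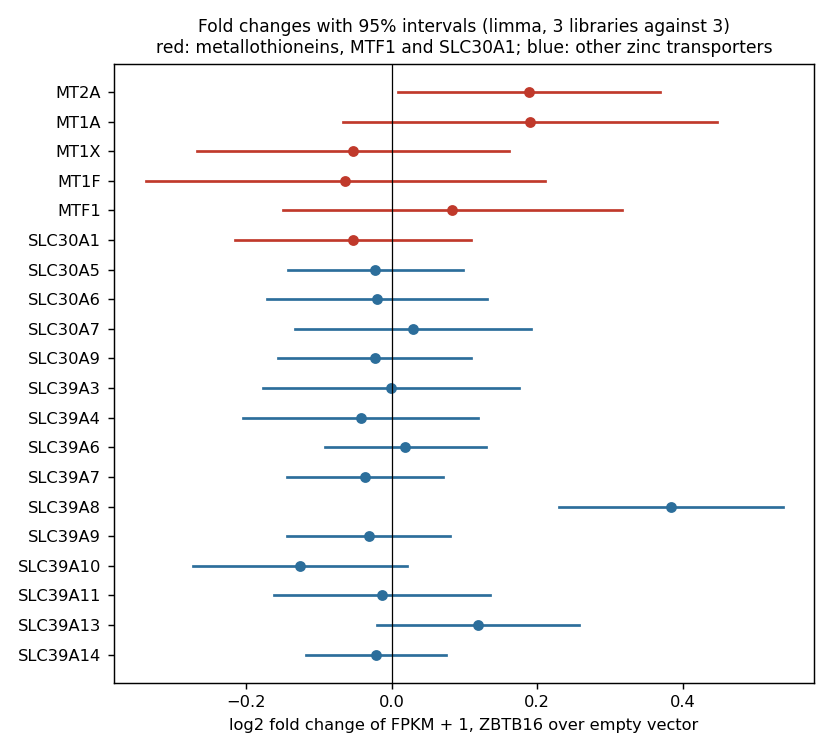
Log2 fold change of FPKM + 1 between ZBTB16 and empty vector with its 95% interval from limma, for the 6 tested members (red) and the 14 other zinc transporters tested (blue). SLC39A8 lies at 0.38 with an interval of 0.23 to 0.54, and MT2A at 0.19 with an interval of 0.01 to 0.37. Neither passed over all genes.

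Genes described elsewhere as MTF1 targets, partly in mouse, did not differ in a common direction. Of 5 such genes 3 were tested, with 1 positive and 2 negative. Limma and voom called 0 of them, and 2 had an unadjusted p under 0.05 in limma, 1 on each side. Over all tested genes 10.2% had such a p, with 5.08% on the higher side. SLC40A1 (ferroportin, the iron exporter, described as an Mtf1 target in mouse) was at 5.52, 6.19 and 5.27 FPKM with empty vector and at 6.57, 7.11 and 6.38 with ZBTB16. The ZBTB16 libraries all lay above, as in 8.12% of all tested genes, and the log2 difference was 0.21 (SE 0.068, adjusted p = 0.311 in limma). GCLC, the catalytic subunit for glutathione synthesis, was at 23.6, 25.7 and 24.1 FPKM and at 21.8, 23.1 and 22.6. Here the ZBTB16 libraries all lay below, as in 8.1% of all tested genes, with a log2 difference of -0.12 (SE 0.050, adjusted p = 0.475 in limma).

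Stress genes that metals induce by other routes were looked at beside the group, since cadmium or excess zinc raises both. All 10 on that list were tested, with 4 positive, 6 negative and a median log2 of -0.02. Limma and voom called 0, and 1 had an unadjusted p under 0.05 in limma, as did 10.2% of all tested genes. Haem oxygenase HMOX1, which heavy metals induce, was at 188 ± 12.5 and 197 ± 9.85 FPKM (limma adjusted p = 0.798). The heat shock genes HSPA1A and HSPA1B were at 43.1 and 18.4 FPKM with empty vector and at 42.9 and 17.4 with ZBTB16, and reads may be shared between these near-identical copies. The most abundant gene was the thioredoxin reductase TXNRD1, at 332 ± 4.68 and 341 ± 11.4 FPKM (limma adjusted p = 0.854). The smallest p was that of SRXN1, the sulfiredoxin, at 20.7, 17.9 and 17.5 FPKM with empty vector and at 16.9, 13.9 and 16.4 with ZBTB16. The ZBTB16 libraries all lay below, as in 8.1% of all tested genes, at a log2 difference of -0.24 (SE 0.085, adjusted p = 0.371 in limma). In HSPA8 they all lay above, as in 8.12% of all tested genes. That gene stood at 317 ± 3.19 FPKM with empty vector and at 337 ± 12.8 with ZBTB16 (limma adjusted p = 0.547).

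The profile of MT2A across the 6 libraries was compared with those of 10802 protein-coding genes, using the root mean square difference of centred log2(FPKM + 1) values. The nearest were SPHK1 (sphingosine kinase), SPRY2 (an inhibitor of receptor tyrosine kinase signalling) and UBTD1 (a ubiquitin domain protein), at differences of 0.034, 0.034 and 0.039 log2 units, where the deviation of MT2A from its own mean was 0.14. Within 0.1 log2 units lay 5.54% of the genes compared. Like MT2A, each had its highest empty-vector value in the first library, at 8.31, 6.96 and 15.3 FPKM. Their log2 fold changes were 0.18, 0.15 and 0.21, and 0 of the 3 passed over all genes (limma adjusted p of 0.445, 0.638 and 0.293). The genes were chosen by their nearness to this profile. The high first library and the similar fold changes therefore follow from the choice and are no separate result.

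**Figure D4:**
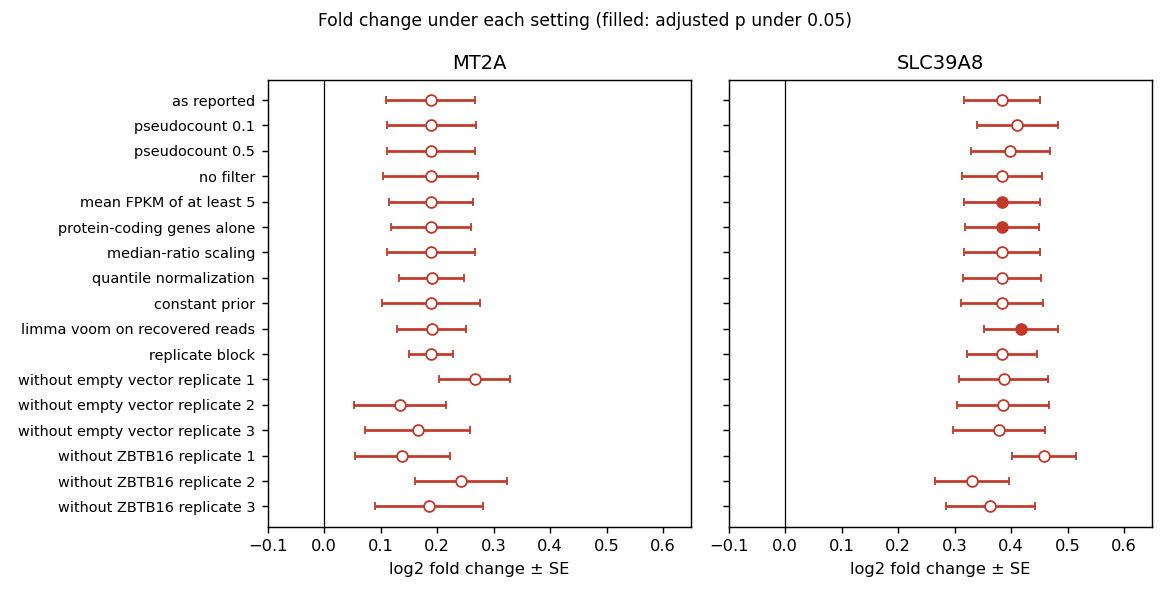
Log2 fold change ± SE of MT2A and of the importer SLC39A8 as reported and under each of 16 other settings, filled where the adjusted p was under 0.05. MT2A is filled in 0 settings and ranges from 0.13 to 0.27, and SLC39A8 is filled in 3 and ranges from 0.33 to 0.46.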

How the data were processed

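The submitters' processing notes list HISAT2 2.0.5 and the build hg38, with no role. The authors deposited FPKM per gene for 6 libraries, with gene lengths and positions, per the file headers. The read counter, strand setting and treatment of multiply aligned reads are not stated in the sources used here. Multiplied by gene length, 100% of the values came out as whole reads within 0.01, and these reads were used where read numbers are given. The members and lists were chosen with earlier results of these data known.

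All 12499 genes averaging 1 FPKM or more over the 6 libraries entered limma 3.58.1 (R 4.3.3) as log2(FPKM + 1) (trended robust prior, two-sided, Benjamini-Hochberg over all of them), so changes of low genes are understated. Whether repeats were separate cultures is not stated, so p-values measure only how these libraries vary, which may be technical. The genes named were all members and the 3 profiles nearest to MT2A. From each other list they were the called member or that with the smallest p, and the most abundant. SLC39A10, HMOX1, HSPA1A, HSPA1B, HSPA8, TSC22D3, FKBP5, marker genes and low family genes were added after their values were seen. Of the marker lists, 1 gene is not reported here. Intervals and floors cover counting error only where they come from reads.

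Alternatives were pseudocounts of 0.1 and 0.5, no filter, a mean of at least 5 FPKM, protein-coding genes alone, median-ratio scaling, quantile normalization, a constant prior, limma voom on the recovered reads, the replicate number as a block and each library left out. The steps were also run on simulated reads, set to a smaller spread between libraries than MT2A had here. That run therefore does not show what size of change could be found at the spread of MT2A. Annotation and transcripts were from GENCODE 29, whose member coordinates equal those in the table, and promoters from RefSeq.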

Additional observations from a re-analysis of the deposited data

How the results depend on the processing

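Under all 16 alternatives 0 members were called in either direction, with MT1F and MTF1 not tested at a minimum mean of 5 FPKM. Over all genes 8 were called higher and 1 lower as reported. The counts were 1 and 0 both without a filter and with a constant prior, 44 and 31 above a mean of 5 FPKM, 56 and 33 among protein-coding genes, 13 and 3 with quantile normalization, and 112 and 86 with voom. A pseudocount of 0.1 gave 2 lower. With a library left out the counts ran from 1 to 4 higher and from 0 to 2 lower. SLC39A8 was called in 3 alternatives. Signs changed only where a library was left out, in 16 of 363 values. For members the range with a library left out was -0.0265 to 0.148 for MTF1 (negative without empty-vector replicate 1), -0.137 to 0.0569 for MT1X (positive without ZBTB16 replicate 1), -0.204 to 0.0440 for MT1F (positive without ZBTB16 replicate 3) and -0.0964 to 0.00498 for SLC30A1 (positive without empty-vector replicate 2 or ZBTB16 replicate 1). For other genes it was -0.105 to 0.0242 for COX17, -0.0184 to 0.0377 for ERRFI1, -0.0736 to 0.304 for MT2P1, -0.385 to 0.0965 for MT1DP and -0.0541 to 0.00536 for SLC30A5.

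Deviations of same-numbered libraries correlated at 0.0672, 0.0465 and -0.0435 over 12499 genes, so the numbers are not taken as a pairing. With the replicate block 12 genes were called higher and 3 lower, 0 of them members. The log2 fold change of MT2A then had an SE of 0.038, against 0.079 without the block, and a limma adjusted p of 0.134. MT1A and MT1F had 31 to 71 reads per library, where counting alone gives a spread of 16.1% and 12.9% of the mean.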

Other observations

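Glucocorticoid-induced genes, looked at because metallothioneins respond to glucocorticoids, numbered 8, all tested, with 6 positive, 2 negative and 0 called over all genes by limma or by voom. ZFP36, which binds and destabilizes cytokine mRNAs and has a zinc finger fold of its own, had the smallest p. It stood at 36.8, 38.4 and 36.9 FPKM with empty vector and at 43.6, 42.0 and 44.7 with ZBTB16, without overlap, at a log2 difference of 0.21 (SE 0.044, adjusted p = 0.136 in limma). The most abundant was ERRFI1, a feedback inhibitor of EGFR, at 43.0 ± 1.34 and 43.1 ± 1.77 FPKM (limma adjusted p = 0.990). At an unadjusted p under 0.05 there were 2, ZFP36 and TSC22D3, the latter at 4.99 ± 0.327 and 5.69 ± 0.227 FPKM. Such a p was found in 10.2% of all tested genes, and in 5.08% on the higher side. In ZFP36 and TSC22D3 the ZBTB16 libraries all lay above, as in 8.12% of all tested genes. FKBP5, a classical target of the same receptor, was at 3.58 ± 0.288 and 3.13 ± 0.127 FPKM, and its log2 fold change was negative (limma adjusted p = 0.524).

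Copper handling genes, whose metal metallothioneins also bind, were tested in 9 of 10 cases, with 1 positive, 8 negative, a median log2 of -0.02 and 0 called in limma, where 0 also had an unadjusted p under 0.05 and voom called 0. COX17, the chaperone that brings copper to cytochrome oxidase, was the most abundant at 15.4 ± 1.62 and 15.1 ± 0.972 FPKM. SCO1, which works with it, had the smallest p, at 7.24 ± 0.434 and 6.84 ± 0.247 FPKM (limma adjusted p = 0.782).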
